A study of Mus musculus with 12 samples.

Results

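The Fc receptor genes measured here were 7 of the 10908 genes tested: Fcgr1, Fcgr2b, Fcgr3, Fcgr4, Fcer1g, Fcgrt and Fcrls. They were taken as every probe whose annotated symbol is one of these names, which gave 14 of the 45281 probes on the array. All 14 member probes passed the detection filter that 21049 probes passed, which asks that the detection p fall under 0.05 on 3 arrays or more. Fcgr2b had 5 probes, Fcrls 3, Fcgrt 2 and the other genes 1 each. The probes were assigned by annotation alone, whereas the 7 genes were chosen with earlier results of these data known. Other genes of the family are in a separate list, among them Ms4a2, Fcamr, Pigr and Fcrl5, which were detected on no array.

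RNA came from dendritic cells grown from the bone marrow of C57/B6 mice and was hybridised to 12 Illumina bead arrays, 3 for each of 4 groups. The groups are Ezh2-deficient mature, wild type mature, Ezh2-deficient immature and wild type immature cells. Ezh2 is the enzyme of Polycomb repressive complex 2 that methylates lysine K27 of histone H3. Per the labels, Ezh2-deficient (KO) cells came from Ezh2f/f; Mx-cre mice and wild type (WT) cells from Ezh2f/f mice, so all 4 groups carry the floxed allele. Mx-cre is a Cre transgene under an interferon-inducible promoter, and the labels do not say whether or when Cre was induced. The culture of every group lasted 6 or 7 days. Its medium held 20 ng/ml GM-CSF and 10 ng/ml IL-4 at first, and 10 ng/ml GM-CSF after day 2. Mature cells then received lipopolysaccharide (LPS, a bacterial cell wall component that activates dendritic cells) at 100 ng/ml overnight, and immature cells were untreated. In some experiments mature cells also spent 6 hours without serum, and the labels do not say in which. The age of the mice and the origin of the replicates (animals, cultures or days) are not given, so the p-values cover no more than the spread among these samples, which may be technical.

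Fc receptors bind the constant part of antibodies. The activating receptors encoded by Fcgr1 (FcγRI), Fcgr3 (FcγRIII) and Fcgr4 (FcγRIV) signal through the shared FcR γ chain encoded by Fcer1g, whose ITAM recruits the kinase Syk, whereas the receptor encoded by Fcgr2b (FcγRIIB) carries an inhibitory ITIM. On dendritic cells their balance sets whether immune complexes activate the cell, and the receptors also take up antigen for presentation. Fcgrt encodes FcRn, an intracellular MHC class I-like receptor that recycles IgG and pairs with β2-microglobulin, and Fcrls encodes an Fc receptor-like protein with a scavenger receptor domain, known as a marker of mouse microglia.

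Arrays that share a replicate number are called a set here. Each array detected between 17892 and 19611 probes, at a median deposited intensity of 108 to 119. Values are log2 intensities after background correction and quantile normalization, so 1 unit is a doubling. Sets 1 and 2 carry the tests, and the 4 arrays of set 3 are shown apart because their labels go against expression. Il6, an inflammatory cytokine that LPS induces, was at 12.55 and 12.58 on the KO mature arrays and at 11.82 and 12.32 on the WT mature arrays of sets 1 and 2. Il6 was at 5.17 and 5.52 on their KO immature arrays and at 6.45 and 6.02 on their WT immature arrays. In set 3, Il6 was at 12.08 on the array labelled KO mature, 4.93 on the one labelled WT mature, 5.90 on the one labelled KO immature and 11.99 on the one labelled WT immature. The brightest Cdkn2a probe was at 7.28 to 7.84 on the 4 KO arrays and at 4.55 to 5.04 on the 4 WT arrays of sets 1 and 2. In set 3 that Cdkn2a probe was at 4.70 and 4.57 on the arrays labelled KO and at 8.08 and 7.63 on those labelled WT. Of the 2 Ezh2 probes, ILMN_2988572 was at 6.10 and 6.61 on the KO mature arrays, against 6.90 and 7.03 on the WT mature arrays of sets 1 and 2. In immature cells of these sets it was at 4.96 and 5.06 on the KO arrays, against 6.58 and 6.03 on the WT arrays. The other Ezh2 probe, ILMN_1234171, was detected on all 12 arrays, at 9.39 to 11.18 on the 8 arrays of sets 1 and 2. In mature cells of these sets it was at 10.02 and 11.18 on the KO arrays, against 10.26 and 10.97 on the WT arrays. In their immature cells it was at 9.62 and 9.39 on the KO arrays, against 9.78 and 9.57 on the WT arrays. The genotypes thus overlapped on this probe at both stages, unlike on ILMN_2988572. Whether the deletion removes the sequence that either Ezh2 probe reads was not tested.

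In the annotation of build GRCm38.p6, Fcgr2b (chr1:170960558-170976071), Fcgr4 (chr1:171018926-171029761), Fcgr3 (chr1:171051169-171065915) and Fcer1g (chr1:171229572-171234349) lie in that order on chromosome 1. Fcgr1 (chr3:96282909-96293969) and Fcrls (chr3:87250736-87263765) are on chromosome 3, and Fcgrt (chr7:45092993-45103822) is on chromosome 7. The 250 bases before a transcript start of 4 of these genes follow, from RefSeq on GRCm38.p6. Fcgr4 rose with LPS, Fcrls and Fcgrt fell, and Fcgr1 went opposite ways in the 2 sets. Each is written 5′ to 3′ on the gene's own strand, and capitals mark the matches to the motifs described after them. The Fcgr4 window is chr1:171018676-171018925 on the plus strand, and the others are on the minus strand, at chr3:96293970-96294219 for Fcgr1, chr3:87263525-87263774 for Fcrls and chr7:45103823-45104072 for Fcgrt. The Fcgr4, Fcgr1 and Fcgrt windows end where the printed gene begins, whereas the Fcrls window precedes a start inside the printed gene, so nearly all of it lies within that gene.
Fcgr4: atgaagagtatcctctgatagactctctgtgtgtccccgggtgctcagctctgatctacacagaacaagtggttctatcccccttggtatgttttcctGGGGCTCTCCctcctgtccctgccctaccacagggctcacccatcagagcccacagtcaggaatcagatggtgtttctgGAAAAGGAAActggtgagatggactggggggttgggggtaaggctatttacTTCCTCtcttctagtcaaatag
Fcgr1: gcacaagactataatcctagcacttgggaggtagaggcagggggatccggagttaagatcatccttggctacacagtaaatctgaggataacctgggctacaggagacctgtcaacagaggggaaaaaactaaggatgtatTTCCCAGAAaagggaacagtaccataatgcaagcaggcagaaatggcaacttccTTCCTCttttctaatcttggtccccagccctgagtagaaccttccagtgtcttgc
Fcrls: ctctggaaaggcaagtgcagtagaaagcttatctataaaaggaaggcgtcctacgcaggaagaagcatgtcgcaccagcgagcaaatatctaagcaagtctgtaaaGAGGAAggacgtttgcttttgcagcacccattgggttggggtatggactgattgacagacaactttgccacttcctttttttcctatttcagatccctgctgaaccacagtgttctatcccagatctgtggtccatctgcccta
Fcgrt: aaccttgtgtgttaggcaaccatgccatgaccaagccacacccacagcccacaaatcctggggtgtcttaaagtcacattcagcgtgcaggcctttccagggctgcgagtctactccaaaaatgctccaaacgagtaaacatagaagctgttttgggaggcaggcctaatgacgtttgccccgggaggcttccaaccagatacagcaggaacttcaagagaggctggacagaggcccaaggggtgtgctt
The motifs searched, on both strands, were the interferon-gamma activated site TTCNNNGAA, the interferon-stimulated response element GAAANNGAAA, the PU.1 core GAGGAA, the AP-1 site TGANTCA and the NF-kB site. Some can overlap one another, as PU.1 and interferon-stimulated elements do in their GGAA core. The Fcgr4 window held the interferon-stimulated element GAAAAGGAAA, which begins 73 bases before the start, an NF-kB match GGGGCTCTCC that begins 152 bases before it, and a PU.1 core on the other strand. Among the 32841 windows of 27018 genes, 2.98% held the interferon-stimulated element, 3.9% the NF-kB site and 23.3% the PU.1 core. The Fcgr1 window held the interferon-gamma activated site TTCCCAGAA, which begins 109 bases before the start and which 7.02% of windows held in some form, and a PU.1 core. The Fcrls window held a PU.1 core alone, and the Fcgrt window held none of the 5 motifs. Among the 3 members not printed, the Fcgr3 windows, which precede transcript starts well inside the printed gene, held an NF-kB match and a PU.1 core, and those of Fcgr2b and Fcer1g held none. The AP-1 site, found in 6.75% of windows, was in no member's window. These matches describe the letters in these windows and say nothing of whether a factor binds.

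LPS moved 3 of the 7 Fc receptor genes past the threshold in each genotype, and they were the same 3 genes. Fcgr4 rose, and Fcgrt and Fcrls fell. Fcgr1, Fcgr2b, Fcgr3 and Fcer1g did not pass the test in either genotype. Over all 10908 genes, 36.0% were called in KO cells (15.2% higher and 20.8% lower) and 30.3% in WT cells (12.6% higher and 17.7% lower) at an adjusted p under 0.05 in limma with Benjamini-Hochberg adjustment. The members' share is thus close to that of all genes, and what follows concerns their sizes and directions. The median change of the 7 genes was 0.11 in KO cells and 0.20 in WT cells, against -0.03 over all genes tested in both. With all 12 arrays as labelled, limma called 0 of the 7 genes and 0 of all genes in either genotype. At an unadjusted p under 0.05, 4596 genes passed in KO cells, 3 of them members, and 90 in WT cells, none of them a member. The changes in KO cells were then 3.71 for Fcgr4, -2.65 for Fcgrt and -5.56 for Fcrls (adjusted p = 0.0668 each), and those in WT cells were 0.92 for Fcgr4, -0.83 for Fcgrt and -2.05 for Fcrls. RNA from a whole culture cannot tell fewer cells of a type from less RNA per cell.

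**Figure D1:**
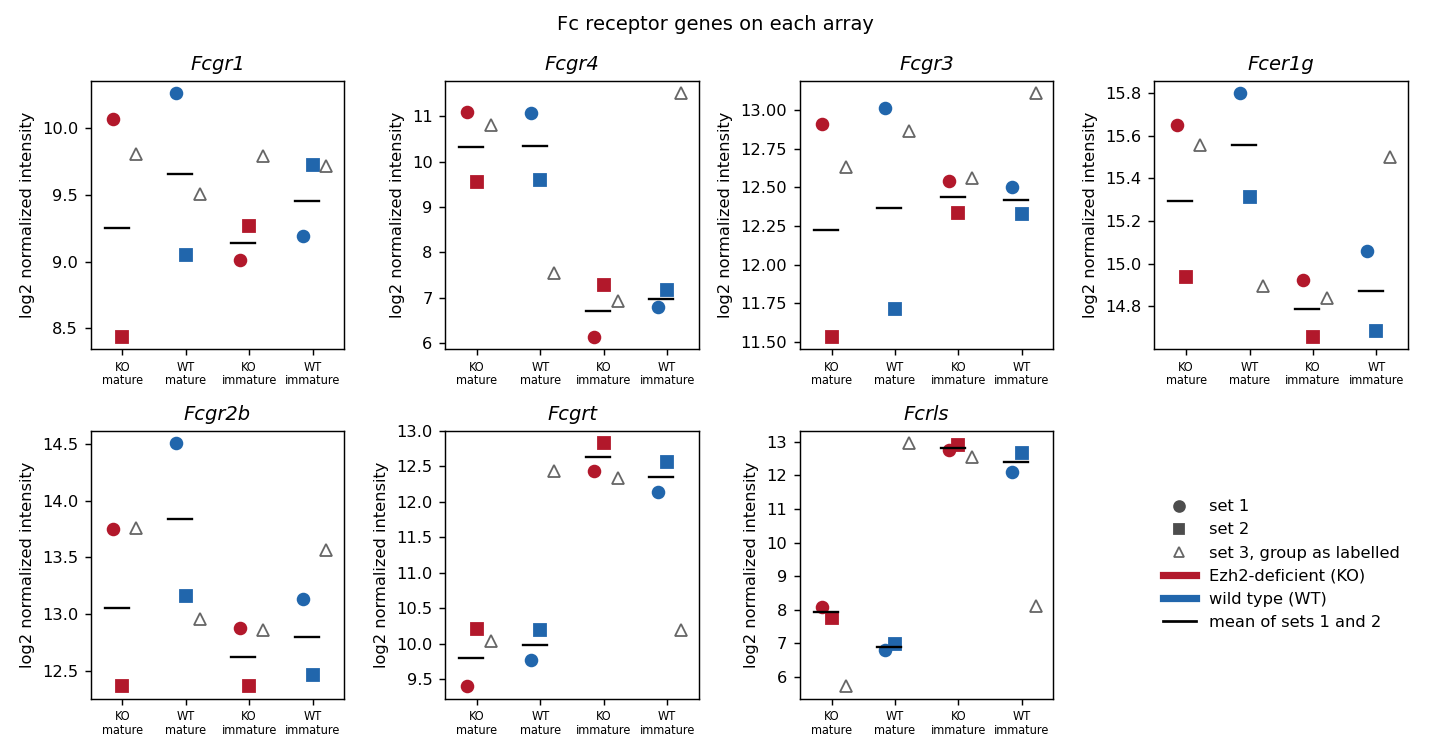
Log2 normalized intensity (y axis, a separate scale in each panel) of the brightest probe of each of the 7 genes on each of the 12 arrays, by group (x axis). Filled circles are set 1, filled squares set 2, open triangles set 3 under its deposited label, and bars the mean of sets 1 and 2. Fcgr4 is high in both mature groups, Fcgrt and Fcrls are high in both immature groups, and the set 3 triangles labelled WT sit at the level of the opposite stage for these 3 genes.

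Fcgr4, the mouse FcγRIV that binds IgG2a and IgG2b, was the member that rose. Its probe was at 11.09 and 9.56 on the KO mature arrays of sets 1 and 2, against 6.14 and 7.28 on the KO immature arrays. In WT cells it was at 11.07 and 9.60 on the mature arrays, against 6.79 and 7.16 on the immature arrays. Every mature array lay above every immature array, by 4.95 in set 1 and 2.28 in set 2 for KO cells and by 4.28 and 2.44 for WT cells. The change was 3.62 in KO cells (12.3-fold, SE 0.63, 95% interval 2.15 to 5.08, limma adjusted p = 0.00358) and 3.36 in WT cells (10.3-fold, SE 0.63, interval 1.90 to 4.83, limma adjusted p = 0.00604). By size of the rise it stood 68th of 10908 genes in KO cells and 63rd in WT cells. Without the mature array of set 1 the change was 2.85 in KO cells and 2.63 in WT cells, and without that of set 2 it was 4.38 and 4.10; the call held without each of the 8 arrays, with adjusted p up to 0.0433. The means were 10.33 ± 1.08 in KO mature, 10.34 ± 1.04 in WT mature, 6.71 ± 0.80 in KO immature and 6.98 ± 0.26 in WT immature cells (SD, n = 2 each). Within a stage the genotypes did not differ beyond the larger of these SDs. On set 3 it was at 10.82 on the array labelled KO mature, 7.54 on the one labelled WT mature, 6.93 on the one labelled KO immature and 11.51 on the one labelled WT immature.

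Fcrls fell the furthest of the 7 genes with LPS. Its brightest probe, ILMN_2770968, was at 8.08 and 7.75 on the KO mature arrays, against 12.77 and 12.89 on the KO immature arrays. In WT cells it was at 6.81 and 6.96 on the mature arrays, against 12.11 and 12.68 on the immature arrays. All 4 mature arrays lay at least 4 units below all 4 immature arrays. The change was -4.91 in KO cells (30.2-fold lower, SE 0.22, limma adjusted p = 2.09e-05) and -5.51 in WT cells (45.6-fold lower, SE 0.22, limma adjusted p = 4.29e-05). By size of the fall it stood 10th of 10908 genes in KO cells and 2nd in WT cells. The means were 7.92 ± 0.24 in KO mature, 6.89 ± 0.11 in WT mature, 12.83 ± 0.09 in KO immature and 12.40 ± 0.40 in WT immature cells (SD, n = 2 each). From high to low the order was KO immature, WT immature, KO mature and WT mature, and each step exceeded the larger SD of its pair, that between the immature groups only slightly.

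The other 2 Fcrls probes moved the same way. ILMN_2831436 was at 5.88 and 5.48 on the KO mature arrays, against 10.62 and 10.69 on the KO immature arrays, a change of -4.97 (SE 0.26, limma adjusted p = 2.27e-05 over all probes). It was not detected on either WT mature array and stood at 9.79 and 10.45 on the WT immature arrays, so it was at least 29.4-fold lower in WT mature cells (limma adjusted p = 2.95e-05, measured means 4.75 and 10.12). ILMN_1219764 was detected on no mature array of sets 1 and 2, against 8.59 and 8.88 on the KO immature arrays and 7.64 and 8.46 on the WT immature arrays. It was at least 11.2-fold lower in KO mature cells and at least 7.02-fold lower in WT mature cells. These bounds set the immature mean against the lowest normalized value of a detected probe on each mature array. On set 3, ILMN_2770968 was at 5.71 on the array labelled KO mature, 12.97 on the one labelled WT mature, 12.55 on the one labelled KO immature and 8.10 on the one labelled WT immature.

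Fcgrt, the FcRn heavy chain, was the other gene that fell. Probe ILMN_1221819 was at 9.40 and 10.20 on the KO mature arrays, against 12.43 and 12.83 on the KO immature arrays. In WT cells it was at 9.77 and 10.20 on the mature arrays, against 12.14 and 12.56 on the immature arrays. The stages did not overlap in either genotype. The change was -2.83 in KO cells (7.12-fold lower, SE 0.30, limma adjusted p = 0.000432) and -2.36 in WT cells (5.15-fold lower, SE 0.30, limma adjusted p = 0.00116). The probe ILMN_2917497 gave -3.02 in KO cells and -2.22 in WT cells (SE 0.32 each). The means were 9.80 ± 0.57 in KO mature, 9.98 ± 0.30 in WT mature, 12.63 ± 0.28 in KO immature and 12.35 ± 0.30 in WT immature cells (SD, n = 2 each), and within a stage the genotypes did not differ beyond the larger SD. On set 3 it was at 10.04 on the array labelled KO mature, 12.44 on the one labelled WT mature, 12.33 on the one labelled KO immature and 10.19 on the one labelled WT immature. Its light chain β2-microglobulin, encoded by B2m, had a change of 0.30 in KO cells and 0.27 in WT cells, and neither passed the test. B2m was at 15.75 and 15.84 on the KO mature arrays, against 15.43 and 15.55 on the KO immature arrays. In WT cells B2m was at 15.83 and 15.82 on the mature arrays, against 15.58 and 15.54 on the immature arrays. The stages did not overlap, as for 69.2% of all genes in KO cells and 67.3% in WT cells. B2m was close in level to the very bright Cd74, at 15.81 to 15.97 on these 8 arrays. Whether a rise is understated at such levels was not tested.

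Fcgr2b, the inhibitory receptor, was not called with LPS on its brightest probe in the fit without a term for the set. ILMN_1228657 was at 13.75 and 12.36 on the KO mature arrays, against 12.88 and 12.36 on the KO immature arrays. In WT cells it was at 14.51 and 13.16 on the mature arrays, against 13.13 and 12.46 on the immature arrays. The stages were just apart in WT cells and overlapped in KO cells. Within sets 1 and 2 the change was 0.87 and -0.0022 in KO cells and 1.38 and 0.70 in WT cells. The means were 13.06 ± 0.98 in KO mature, 13.84 ± 0.96 in WT mature, 12.62 ± 0.37 in KO immature and 12.79 ± 0.47 in WT immature cells (SD, n = 2 each). Ordered by level, no neighbouring groups differed beyond the larger of their SDs. The WT stages, not neighbours in level, differed by 1.04, beyond their larger SD of 0.96, and the KO stages by 0.44, within theirs. The change was 0.44 in KO cells (SE 0.55, interval -0.84 to 1.71, limma adjusted p = 0.575) and 1.04 in WT cells (SE 0.55, interval -0.23 to 2.31, limma adjusted p = 0.191). The other 4 probes had changes of 0.51 to 0.94 in KO cells and 1.12 to 1.39 in WT cells, so all 5 were positive in both genotypes. Of these 10 tests 1 passed, that of ILMN_3029178 in WT cells, with a change of 1.26 (SE 0.39, limma adjusted p = 0.0401 over all 17632 probes, of which 33.8% were called in KO cells and 28.8% in WT cells). It was at 10.04 and 8.98 on the WT mature arrays, against 8.31 and 8.18 on the WT immature arrays. On set 3, ILMN_1228657 was at 13.76 on the array labelled KO mature, 12.96 on the one labelled WT mature, 12.86 on the one labelled KO immature and 13.57 on the one labelled WT immature.

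**Figure D2:**
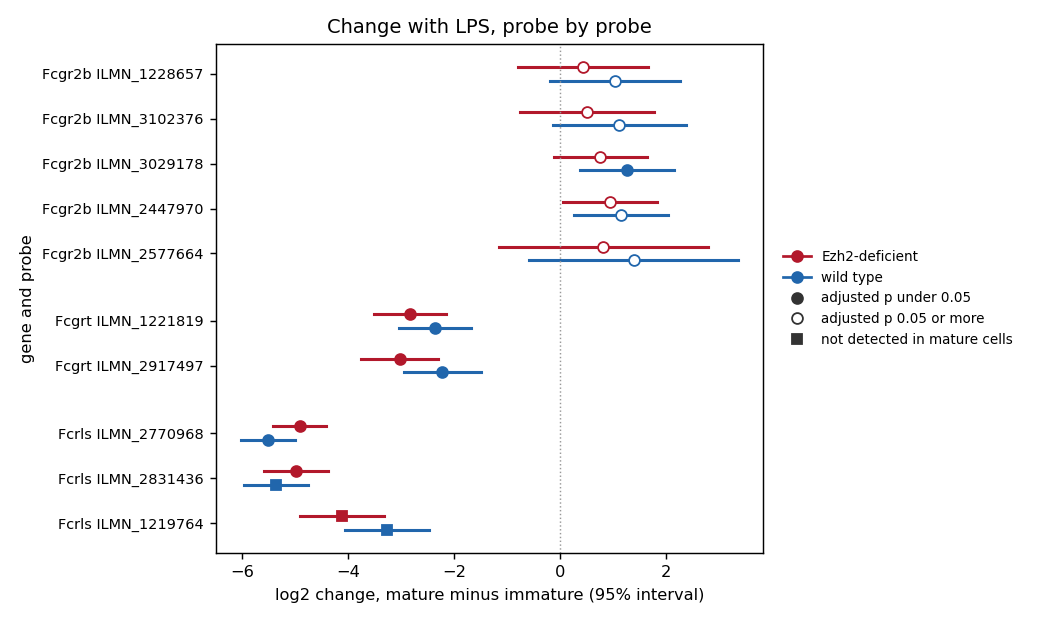
Log2 change with LPS (x axis, mature minus immature, points with 95% intervals) of each probe of Fcgr2b, Fcgrt and Fcrls, the 3 genes with more than 1 probe (y axis), in Ezh2-deficient cells above wild type cells. Filled symbols have an adjusted p under 0.05 and squares mark probes detected on no mature array of that genotype in sets 1 and 2; all 5 Fcgr2b probes lie to the right of 0 and all 5 Fcgrt and Fcrls probes to the left.

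Fcer1g, the FcR γ chain needed for surface expression of the activating receptors, was not called either in the fit of the 4 groups without a term for the set. It was at 15.65 and 14.93 on the KO mature arrays, against 14.92 and 14.66 on the KO immature arrays. In WT cells it was at 15.80 and 15.31 on the mature arrays, against 15.06 and 14.68 on the immature arrays. The stages did not overlap in either genotype, though they nearly met in KO cells, as for 69.2% of all genes in KO cells and 67.3% in WT cells. Within the sets the change was 0.73 and 0.28 in KO cells and 0.74 and 0.63 in WT cells, for sets 1 and 2, so all 4 were positive. The change was 0.50 in KO cells (SE 0.29, interval -0.16 to 1.16, limma adjusted p = 0.209) and 0.68 in WT cells (SE 0.29, interval 0.02 to 1.35, limma adjusted p = 0.109). The means were 15.29 ± 0.51 in KO mature, 15.56 ± 0.34 in WT mature, 14.79 ± 0.19 in KO immature and 14.87 ± 0.26 in WT immature cells (SD, n = 2 each). Ordered by level, no neighbouring groups were further apart than the larger SD. The WT stages, not neighbours in level, differed by 0.68, beyond their larger SD of 0.34, and the KO stages by 0.50, just within theirs. Its deposited intensity was 44.6% to 85.1% of the brightest probe on the array. On set 3 it was at 15.55 on the array labelled KO mature, 14.89 on the one labelled WT mature, 14.84 on the one labelled KO immature and 15.50 on the one labelled WT immature.

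Fcgr1 and Fcgr3, the high-affinity and a low-affinity activating receptor, went opposite ways in the 2 sets. Fcgr1 was at 10.06 and 8.44 on the KO mature arrays, against 9.01 and 9.26 on the KO immature arrays, and at 10.26 and 9.05 on the WT mature arrays, against 9.19 and 9.72 on the WT immature arrays. Its mature minus immature difference was 1.05 in KO cells and 1.07 in WT cells of set 1, and -0.82 in KO cells and -0.67 in WT cells of set 2. Fcgr3 was at 12.91 and 11.53 on the KO mature arrays, against 12.54 and 12.33 on the KO immature arrays, and at 13.02 and 11.71 on the WT mature arrays, against 12.51 and 12.33 on the WT immature arrays. Its difference was 0.37 in KO cells and 0.51 in WT cells of set 1, and -0.80 in KO cells and -0.62 in WT cells of set 2. Both genes thus had mature cells above immature cells in set 1 and below them in set 2, in each genotype. The mature groups were also the more spread, with an SD of 1.15 in KO and 0.86 in WT mature cells for Fcgr1 and of 0.97 and 0.92 for Fcgr3, against at most 0.37 in any immature group (n = 2 each).

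This pattern, with each of the 4 differences past 0.3, was met by 32 of 10908 genes (0.293%), Fcgr1 and Fcgr3 among them. With no minimum size it was met by 360 genes (3.3%). The pattern counted is the one seen in Fcgr1 and Fcgr3, and 0.3 lies under the smallest of their differences, 0.37. These shares therefore describe how many genes met it and cannot test whether it is unusual for these genes. The same direction in all 4 comparisons was seen for 66.5% of genes, including Fcgr4, Fcer1g, Fcgrt and Fcrls. Over both sets the change of Fcgr1 was 0.11 in KO cells (interval -1.16 to 1.39) and 0.20 in WT cells (interval -1.08 to 1.47). That of Fcgr3 was -0.21 in KO cells (interval -1.37 to 0.94) and -0.05 in WT cells (interval -1.21 to 1.10). No LPS change was shown for either gene, and these intervals leave room for about a doubling in both directions. On set 3, Fcgr1 lay between 9.50 and 9.81 on all 4 arrays, and Fcgr3 was at 12.63 on the array labelled KO mature, 12.87 on the one labelled WT mature, 12.56 on the one labelled KO immature and 13.11 on the one labelled WT immature. Fcgr2b and Fcgr3 encode extracellular parts that are closely alike, and whether a probe of one binds the message of the other was not tested.

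**Figure D3:**
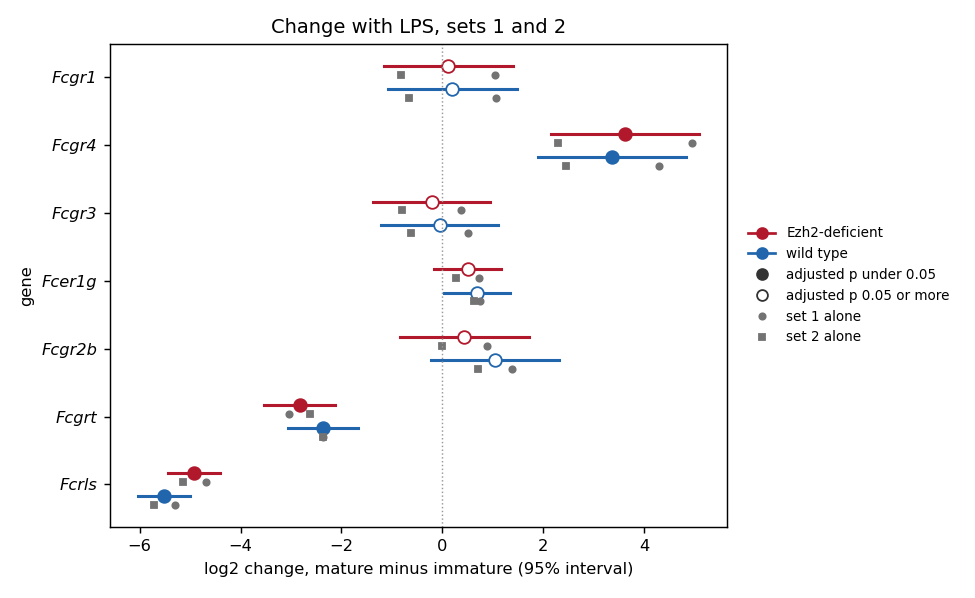
Log2 change with LPS (x axis, mature minus immature) of the 7 genes, in Ezh2-deficient cells (red) above wild type cells (blue). Large points with 95% intervals come from the fit of sets 1 and 2, filled where the adjusted p is under 0.05, and small grey symbols are set 1 (circle) and set 2 (square) alone; those of Fcgr1 and Fcgr3 lie on either side of 0.

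Markers of other cells moved with the stages. The 11 macrophage markers with a probe summed to 12822 and 29908 on the linear scale in KO mature cells, against 47006 to 69743 in KO immature cells. In WT cells they summed to 13571 and 31729 on the mature arrays, against 46350 to 71947 on the immature arrays. Lyz2, the brightest of the list on the immature arrays, weighs most in the sums there. Lyz2 was at 14.2 and 12.2 on the KO mature arrays, against 15.6 and 14.7 on the KO immature arrays. In WT cells Lyz2 was at 14.1 and 12.0 on the mature arrays, against 15.5 and 14.5 on the immature arrays. Of the 10 macrophage markers tested, 5 fell in each genotype (Mrc1, C1qa, C1qb, C1qc and Csf1r) and Marco rose. Over all genes, 20.8% fell in KO cells and 17.7% in WT cells. At each stage and in each genotype the summed level was higher in set 1 than in set 2. The 11 neutrophil markers summed to 2277 to 5349 in KO mature cells, against 4326 to 20362 in KO immature cells, and to 4363 to 9645 in WT mature cells, against 10401 to 26579 in WT immature cells. The 10 mast cell and basophil markers with a probe summed to 10516 to 14184 in KO mature cells, against 2468 to 2570 in KO immature cells, and to 13226 to 13432 in WT mature cells, against 2374 to 3197 in WT immature cells. Hdc, the histidine decarboxylase gene, rose by 5.09 in KO cells and 4.27 in WT cells, and Ms4a2, Mcpt4, Cma1 and Tpsb2 were detected on no array. Of the 6 of these markers tested, 4 had a negative change in each genotype, with a median of -0.56 in KO cells and -0.53 in WT cells. Cpa3, a mast cell protease gene, fell by 1.82 in KO cells and had a change of -1.25 in WT cells that did not pass the test, and Kit, the stem cell factor receptor gene, fell by 1.12 in WT cells and had a change of -0.80 in KO cells that did not pass it. Among 9 dendritic cell markers, Batf3 rose and Itgax fell in each genotype, Cd209a was called lower in KO mature cells, where it was not detected, by at least 1.76-fold, and Flt3 was detected on no array. The part of these cells in the Fc receptor changes was not tested.

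Other genes of the Fc receptor family that were called with LPS were all higher in mature cells. Of these genes, 3 of the 6 tested rose in KO cells and 2 in WT cells, and none fell. Over all genes, 15.2% rose and 20.8% fell in KO cells, and 12.6% rose and 17.7% fell in WT cells. Fcmr, the receptor for IgM, was at 10.28 and 11.66 on the KO mature arrays, against 6.49 and 8.08 on the KO immature arrays, and at 10.39 and 11.76 on the WT mature arrays, against 7.95 and 9.42 on the WT immature arrays. Its change was 3.68 in KO cells and 2.39 in WT cells (limma adjusted p = 0.00684 and 0.0446). Trim21, a cytosolic antibody receptor, rose by 1.49 in KO cells and 1.39 in WT cells. Fcer2a, the low-affinity IgE receptor, rose by 1.06 in KO cells, where 1 of the 2 immature arrays detected it, and had a change of 0.26 in WT cells that did not pass the test. The median change of the 6 was 0.59 in KO cells and 0.17 in WT cells.

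Receptors that share the FcR γ chain moved upward where they were called. In each genotype 3 of the 7 tested rose and none fell, with a median change of 0.47 in KO cells and 0.60 in WT cells. Over all genes, 15.2% rose in KO cells and 12.6% in WT cells. The 1 negative change in each genotype was that of Clec4n, the brightest of the list, and it did not pass the test. Clec4n was at 14.32 and 12.61 on the KO mature arrays, against 14.83 and 14.49 on the KO immature arrays. In WT cells Clec4n was at 14.43 and 12.97 on the mature arrays, against 14.60 and 14.42 on the immature arrays. Clec4e, which encodes the mycobacterial lipid receptor Mincle, was at 12.81 and 11.61 on the KO mature arrays, against 9.61 and 8.78 on the KO immature arrays, and changed by 3.02. In WT cells Clec4e was at 12.91 and 12.31 on the mature arrays, against 10.31 and 9.44 on the immature arrays, and changed by 2.73. Gp6, the collagen receptor best known from platelets, was at 9.62 and 8.26 on the KO mature arrays, against 5.33 and 4.86 on the KO immature arrays, of which 1 was detected, and was at least 11.5-fold higher in WT mature cells than in WT immature cells, where it was not detected. Tarm1, an activating receptor of myeloid cells, rose by 2.09 in KO cells and 1.72 in WT cells. Of the other adaptors, Tyrobp, which encodes the ITAM adaptor DAP12, fell by 1.81 in KO cells and 1.26 in WT cells, and Hcst and B2m did not pass the test.

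Signalling genes beneath the receptors moved mostly downward where they were called. Called genes leaned downward over all genes as well, with 20.8% lower and 15.2% higher in KO cells and 17.7% lower and 12.6% higher in WT cells. Of 11 activating signalling genes, 1 rose and 5 fell in each genotype, with a median change of -0.46 in KO cells and -0.48 in WT cells. Lat2, an adaptor of myeloid and mast cells, was at 9.85 and 8.78 on the KO mature arrays, against 12.23 and 12.13 on the KO immature arrays, a change of -2.87. In WT cells Lat2 was at 10.55 and 9.54 on the mature arrays, against 11.82 and 11.98 on the immature arrays, a change of -1.86. The kinase gene Fgr fell by 2.10 in KO cells and 1.46 in WT cells, the phospholipase gene Plcg2 fell by 1.39 in KO cells and 0.96 in WT cells, and the kinase gene Fyn rose by 1.41 in KO cells and 1.36 in WT cells. Card9 was called lower in both genotypes, by at least 1.62-fold in KO mature cells, where it was not detected, and at 4.62 and 5.31 on the WT mature arrays, of which 1 was detected, against 6.24 and 6.71 on the WT immature arrays. Syk, named here for its role after its values were seen, had a change of 0.62 in KO cells and 0.71 in WT cells (limma adjusted p = 0.0773 and 0.0564).

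Inhibitory signalling genes, too, moved mostly downward where they were called, the direction in which called genes leaned over all genes (20.8% lower in KO cells and 17.7% in WT cells). Of 9 tested, 2 rose and 5 fell in KO cells and 2 rose and 4 fell in WT cells, with a median change of -0.52 in KO cells and -0.26 in WT cells. Dok2, an adaptor that limits receptor signalling, fell by 3.14 in KO cells and 2.55 in WT cells. The kinase gene Csk fell by 1.11 in KO cells and 0.95 in WT cells. Inpp5d, which encodes the phosphatase SHIP1 that acts downstream of FcγRIIB, fell by 0.89 in KO cells and 0.75 in WT cells, and Ptpn6, which encodes SHP-1, fell by 0.73 in KO cells and 0.76 in WT cells. Dok1 rose by 1.21 in both genotypes, and Inppl1, which encodes SHIP2, rose by 0.95 in KO cells and 1.10 in WT cells.

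Among the 7 transcription regulators tested, 4 rose in each genotype, and 2 fell in KO cells and 1 in WT cells. Over all genes, 15.2% rose and 20.8% fell in KO cells, against 12.6% and 17.7% in WT cells. Their median change was 1.39 in KO cells and 1.12 in WT cells. Stat2, which acts in the interferon pathway, was at 11.17 and 10.65 on the KO mature arrays, against 8.13 and 8.18 on the KO immature arrays, and at 10.76 and 10.45 on the WT mature arrays, against 8.27 and 8.54 on the WT immature arrays. Its change was 2.75 in KO cells and 2.20 in WT cells. Irf8 rose by 2.18 in KO cells and 1.60 in WT cells, and Irf1 rose by 1.56 in KO cells and 1.41 in WT cells. Spi1, which encodes PU.1, fell by 0.86 in KO cells and had a change of -0.50 in WT cells that did not pass the test. Cebpa, which encodes a myeloid factor, was detected on no mature array of sets 1 and 2 and was at least 1.55-fold lower in KO mature cells and at least 1.19-fold lower in WT mature cells. Whether any of these lists responded differently in the 2 genotypes is not shown by their counts, and no gene of them passed the test of the difference.

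**Figure D4:**
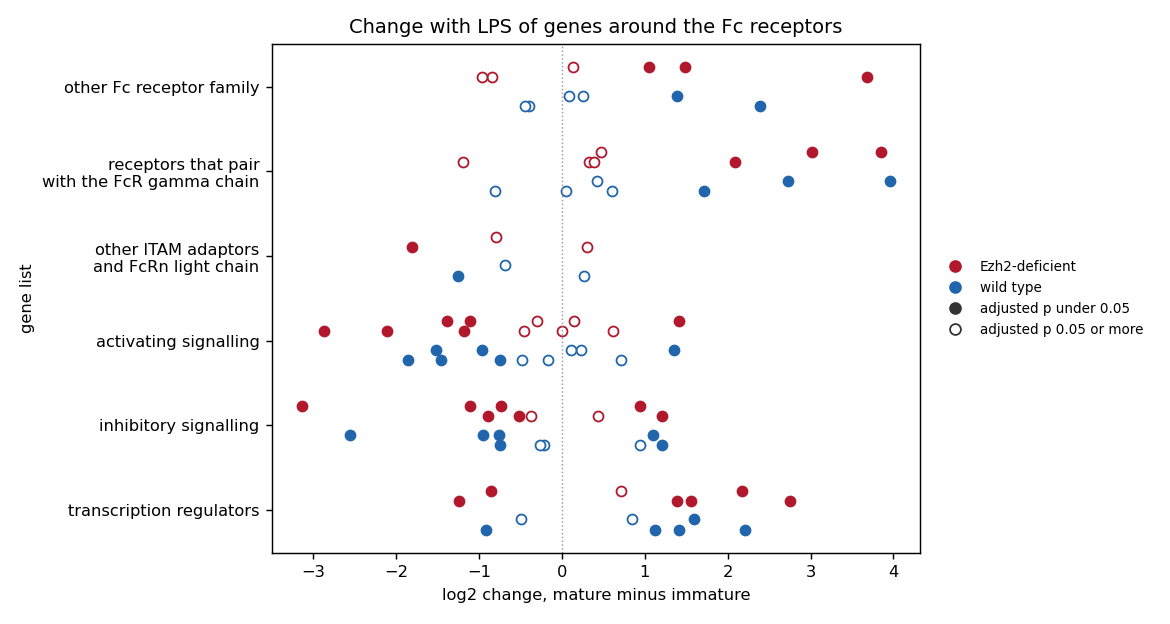
Log2 change with LPS (x axis, mature minus immature) of every tested gene in 6 lists around the Fc receptors (y axis), with Ezh2-deficient cells (red) above wild type cells (blue) in each list. Filled points have an adjusted p under 0.05; called receptors that pair with the γ chain lie to the right of 0, and called activating signalling genes other than Fyn to the left.

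Ezh2 deficiency moved no Fc receptor gene past the threshold at either stage. In mature cells 0 of 7 genes were called by limma, where 0.0183% of all genes were, and in immature cells 0 of 7, where 0.0275% were. At an unadjusted p under 0.05, 1 member passed in mature cells (Fcrls), where 4.79% of all genes did, and 0 in immature cells, where 3.05% did. Averaged over both stages 0 of 7 were called, where 0.0550% of all genes were, and 1 (Fcrls) passed at an unadjusted p under 0.05, as did 6.10% of all genes. The median difference of the 7 genes, KO minus WT, was -0.18 in mature cells and -0.08 in immature cells.

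Fcrls had the largest genotype difference of the 7. On ILMN_2770968 it was at 8.08 and 7.75 on the KO mature arrays, against 6.81 and 6.96 on the WT mature arrays, with no overlap, as for 27.9% of all genes in mature cells. The difference in mature cells was 1.03 (SE 0.22, interval 0.52 to 1.54, unadjusted p = 0.00175, limma adjusted p = 0.454). In immature cells the KO arrays stood at 12.77 and 12.89, against 12.11 and 12.68 on the WT arrays, with no overlap, as for 31.0% of all genes. That difference was 0.43 (SE 0.22, interval -0.08 to 0.95, limma adjusted p of 0.999983), and it ran from 0.15 without the WT array of set 1 to 0.72 without that of set 2. Both sets had KO above WT at both stages, and the mean difference over the stages was 0.73 (SE 0.16, interval 0.37 to 1.09, limma adjusted p = 0.272). ILMN_2831436, detected on both KO and neither WT array in mature cells, was at least 1.36-fold higher in KO mature cells (limma adjusted p = 0.768) and differed by 0.54 in immature cells. ILMN_1219764, detected on no mature array of sets 1 and 2, differed by 0.69 in immature cells.

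The other 6 genes differed less between genotypes on their brightest probe. Fcgr2b had a difference of -0.78 in mature cells (SE 0.55, interval -2.05 to 0.49), at -0.76 in set 1 and -0.80 in set 2. The mature arrays of set 1 (13.75 KO, 14.51 WT) stood above those of set 2 (12.36 KO, 13.16 WT). The fit has no term for the set, so leaving out 1 array moved the difference with these levels. It was then -0.10 (WT mature array of set 1 left out), -1.46 (WT, set 2), -1.48 (KO, set 1) or -0.08 (KO, set 2). Its other 4 probes gave -0.17 to -0.80 in mature cells. In immature cells the Fcgr2b difference was -0.17 (interval -1.45 to 1.10). Fcgr1 differed by -0.40 in mature cells (interval -1.68 to 0.87) and -0.32 in immature cells (interval -1.59 to 0.96). Fcgr4 differed by -0.01 in mature cells (interval -1.48 to 1.45) and -0.27 in immature cells (interval -1.73 to 1.20). Both Fcgr4 intervals hold a doubling in either direction. Fcgr3 differed by -0.14 in mature cells (interval -1.30 to 1.01) and 0.02 in immature cells (interval -1.14 to 1.17). Fcer1g differed by -0.26 in mature cells (interval -0.92 to 0.40) and -0.08 in immature cells (interval -0.74 to 0.58). Fcgrt differed by -0.18 in mature cells (interval -0.88 to 0.51) and 0.28 in immature cells (interval -0.41 to 0.98). Its other probe, ILMN_2917497, differed by -0.16 in mature cells and by 0.64 in immature cells (interval -0.09 to 1.37, limma adjusted p of 0.999983), where the genotypes did not overlap.

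Summed marker levels of other cells, on the linear scale, were also set between the genotypes. The 6 T and NK cell markers with a probe summed to 160 and 187 in KO mature cells, against 165 and 184 in WT mature cells, and to 2171 and 3004 in KO immature cells, against 462 and 483 in WT immature cells. Cd3g, which encodes a T cell receptor subunit, was the one of them called in immature cells, where it was 8.02-fold higher in KO cells (limma adjusted p = 0.0177), and Ncr1 and Eomes were detected on no array. Of the 4 markers tested, 2 had a positive and 2 a negative difference in immature cells, with a median of -0.10. Cd3e, another T cell receptor subunit gene, was at 5.12 and 4.77 on the KO immature arrays, against 5.39 and 5.20 on the WT immature arrays, and Nkg7 was at 5.91 and 4.66 on the KO immature arrays, against 6.27 and 5.47 on the WT immature arrays. Neutrophil markers summed lower in KO cells than in WT cells of the same set and stage, within the ranges given above, and the macrophage sums of the genotypes lay close to each other in each set and stage. The complement genes C1qa, C1qb and C1qc of that list stood lower in KO immature cells, without overlap and without passing the test. C1qb was at 9.42 and 10.54 on the KO immature arrays, against 11.80 and 12.00 on the WT immature arrays, a difference of -1.91 (limma adjusted p = 0.882). The immature difference was -1.98 for C1qa (limma adjusted p = 0.153) and -1.96 for C1qc (limma adjusted p of 0.999983). The part of these cells in the Fcrls difference was not tested.

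**Figure D5:**
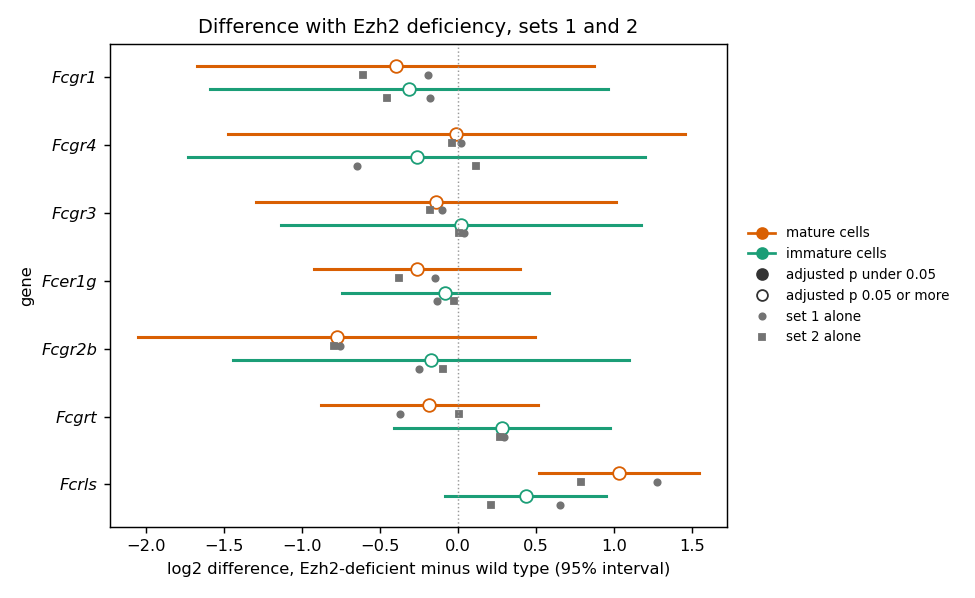
Log2 difference between genotypes (x axis, Ezh2-deficient minus wild type) of the 7 genes, in mature cells (orange) above immature cells (green). Points with 95% intervals come from the fit of sets 1 and 2 and none is filled, since no adjusted p was under 0.05; only the interval of Fcrls in mature cells, 0.52 to 1.54, lies clear of 0.

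No member's LPS response differed between the genotypes past the threshold. Of 10908 genes 0 (0%) were called by limma for this difference, and 169 (1.55%) passed at an unadjusted p under 0.05, none of them a member. The KO response minus the WT response was 0.60 for Fcrls (SE 0.31, interval -0.13 to 1.32), -0.47 for Fcgrt (SE 0.42, interval -1.45 to 0.52) and 0.25 for Fcgr4 (SE 0.90, interval -1.82 to 2.33). The call of each gene in both genotypes therefore says nothing of equal size, and the interval of Fcgr4 in particular is wide.

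Genes whose profile over the 8 arrays lay nearest to a member's were found by the root mean square difference of log2 values, each gene centred on its own mean, among 8080 other genes detected on all 8 arrays. Fcgr4 was nearest to Ifi214, at 0.387, followed by Bdh2 and P4ha2. Ifi214, an interferon-inducible gene, was at 10.03 and 8.84 on the KO mature arrays, against 5.72 and 5.94 on the KO immature arrays, and at 9.72 and 8.80 on the WT mature arrays, against 5.44 and 5.49 on the WT immature arrays. Fcgrt was nearest to Cd6, at 0.163, followed by Hsd17b4 and Ptpn18. Cd6 was at 6.24 and 7.04 on the KO mature arrays, against 8.92 and 9.52 on the KO immature arrays, and at 6.57 and 6.99 on the WT mature arrays, against 9.18 and 9.57 on the WT immature arrays. Fcrls was nearest to Hr, at 0.592, followed by the lectin gene Mgl2 and by Ramp1, and Mgl2 fell by 5.22 in KO cells and 4.38 in WT cells.

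The genes nearest to Fcgr1 and Fcgr3 were chosen for a like profile, so a like difference between the 2 sets follows from that choice. Fcgr1 was nearest to Pkm, the glycolytic pyruvate kinase gene, at 0.189, followed by Pcdhgc5 and Eno1b. Pkm was at 15.05 and 13.79 on the KO mature arrays, against 14.35 and 14.31 on the KO immature arrays, and at 15.08 and 14.04 on the WT mature arrays, against 14.35 and 14.56 on the WT immature arrays. Fcgr3 was nearest to Lgals8, at 0.0941, followed by Ly6e and Kcnn4. Fcgr2b was nearest to Mmp14, at 0.208, followed by Slc31a1 and Tnfrsf22. The SD of Fcer1g over the 8 arrays was 0.42, under the 0.5 required, so no nearest gene was sought for it. These distances describe 8 arrays that share normalization, stage and set.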

How the data were processed

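The 12 Illumina bead arrays measured RNA of 4 groups, 3 arrays each. Per the file headers, the deposited files give, for each array and each of 45281 probes, the average intensity with its detection p-value, neither log-transformed nor normalized. The authors also deposited log2 values that are quantile-normalized without background correction. Per the submitters' processing notes BeadStudio, limma and R 2.15.2 were used; the step each was used for is not given in the sources used here.

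Here neqc in limma 3.58.1 (R 4.3.3) corrected the background, with negative controls estimated from detection p-values and an offset of 16, then quantile-normalized the 12 arrays together and took log2. Probes with a detection p-value under 0.05 on at least 3 arrays were kept, and each gene was represented by its brightest detected probe, through GEO's platform annotation with symbols updated by gene identifier. This left 10908 genes from 17632 probes. The 4 group means of sets 1 and 2 (8 arrays) were fitted with lmFit and eBayes with an intensity trend, and two-sided p-values received the Benjamini-Hochberg adjustment over all genes, or over all probes for single probes. The fit was tested on simulated data. With 2 arrays a group, the number of arrays limits the precision.

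The members and the lists were chosen with earlier results of these data known. Named were all members and, of each pathway list, up to 3 risen and 3 fallen called genes whose groups did not overlap, plus the 3 nearest genes of each member with an SD of at least 0.5. The arrays were distinct, since 2 arrays never shared the intensity of more than 1 probe. The main fit did not use replicate numbers as pairs, since the labels do not say what they share. Differences within a set are given as description. The alternatives were the deposited log2 table, quantile normalization without background correction, no detection filter, all 12 arrays as labelled, the replicate block, eBayes without trend, the mean over probes and leaving out each array.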

Additional observations from a re-analysis of the deposited data

How the results depend on the processing

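With 2 arrays a group, small changes of single genes could not be measured. In LPS comparisons of both genotypes, 3 members were called with the deposited log2 table, quantile normalization without background correction, no detection filter, no intensity trend, the mean over probes, and without each of the 8 arrays in turn. With the deposited table Fcgr4 changed by 2.81 in KO cells and 2.70 in WT cells, less than with background correction. With all 12 arrays as labelled, 0 members and 0 genes were called in either LPS comparison. There Fcgr4 changed by 3.71 in KO cells and 0.92 in WT cells, Fcgrt by -2.65 and -0.83, and Fcrls by -5.56 and -2.05, with adjusted p of 0.0668 in KO cells. That fit also turned the sign of the genotype differences of Fcgr3 in immature cells (-0.17) and, in mature cells, of Fcgr4 (1.08), Fcer1g (0.044) and Fcrls (-1.73), and of the Fcrls response difference (-3.50). A fit of 10 arrays without the pair of set 3 labelled WT was chosen after seeing the data. It kept the set 3 arrays labelled KO, where the brightest Cdkn2a probe was at 4.70 and 4.57. On the KO arrays of sets 1 and 2 that probe was at 7.28 to 7.84. The fit of 10 arrays called 4 members in KO cells, with Fcer1g at 0.57 (adjusted p = 0.0444). It also turned the mature Fcgr4 difference (0.15) and the Fcrls response difference (-0.044). With the replicate block, 5 members were called with LPS in WT cells, Fcgr2b (adjusted p = 0.00734) and Fcer1g (adjusted p = 0.00689) being added, and 4 in KO cells, with Fcer1g at adjusted p = 0.0234. The block called 0 members in the genotype comparisons. Deviations of arrays sharing a number correlated between groups at 0.22 to 0.72, but the labels do not say what a number shares. Leaving out each array, the LPS change of Fcgr1 ran from -0.70 to 0.93 in KO cells and -0.41 to 0.80 in WT cells, that of Fcgr3 from -0.90 to 0.47 and -0.70 to 0.60, and that of Fcgr2b from -0.26 to 1.13 in KO cells. The mature genotype difference ran from -1.22 to 0.41 for Fcgr1, -0.83 to 0.55 for Fcgr3, -0.78 to 0.75 for Fcgr4, -0.62 to 0.094 for Fcer1g and -0.59 to 0.22 for Fcgrt. The immature one ran from -0.51 to 0.16 for Fcgr2b, -0.086 to 0.12 for Fcgr3, -0.84 to 0.30 for Fcgr4 and -0.27 to 0.10 for Fcer1g, and the Fcgr4 response difference from -0.51 to 1.02. Over all genes tested, LPS called 3926 in KO cells and 3307 in WT cells, but 2374 and 2411 in KO cells without its immature array of set 1 or 2, and 2018 and 1784 in WT cells without those of WT cells. The genotype counts over all genes, 2 in mature and 3 in immature cells and 6 over both, were 13, 16 and 59 with the block, 0 each with 10 or 12 arrays, and 0 to 2, 0 to 5 and 2 to 6 without 1 array. In mature cells they were 4 without the filter and 1 with the mean over probes. The cause of these shifts was not tested. The chip as a block was not run, because the file headers name no chips.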
